A study of Mus musculus with 8 samples.

Results

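The genes of 7 EMT transcription factors, Snai1, Snai2, Twist1, Twist2, Zeb1, Zeb2 and Prrx1, were examined for binding of ZFP281 in spheres of the MMTV-HER2/Neu mouse. They are 7 of the 21887 protein-coding genes of the annotation. They were chosen by name and not by a cut on a measured value, but with earlier results of these data known. For each gene the summits in the gene body or within 20 kb of either end were collected, and all 7 genes had at least 1 such window summit in at least 1 library. A summit is the position of 1 bp at which a peak of immunoprecipitated DNA was highest, with a score that the authors deposited and that ranks summits within a list.

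ZFP281 is a zinc finger transcription factor of pluripotent and embryonic cells. The MMTV promoter drives the HER2/Neu oncogene in the mammary epithelium of these FvB mice, and the oncogene is shared by both groups. Early lesion (EL) spheres came from animals of 14 to 18 weeks without palpable tumours, and primary tumour (PT) spheres from tumour-bearing animals of more than 20 weeks. All cells were kept for 7 days in mammosphere medium without attachment. Each group has 3 ZFP281 libraries, called biological replicates in the labels, and 1 input that was not analysed here. The tissue label of the EL samples reads mammary lung and that of the PT samples breast tumor, and both are labelled breast cancer cells. Nothing in the labels says how many animals gave a library, and summit lists hold no expression, so these labels cannot be checked against markers.

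Epithelial to mesenchymal transition (EMT) is the programme by which epithelial cells lose their junctions and become motile, and these 7 factors are its classical inducers. SNAI1 and SNAI2 (Snail and Slug) are zinc finger repressors of E-cadherin, ZEB1 and ZEB2 are larger zinc finger and homeodomain proteins that repress epithelial genes through the same E-box motif, TWIST1 and TWIST2 are basic helix-loop-helix proteins, and PRRX1 is a paired-type homeodomain protein of mesenchyme. In breast cancer they are known from invasion and dissemination. The comparison asks where ZFP281 bound at their genes in early lesion and in primary tumour spheres.

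The promoters on which the binding data bear are shown first, 250 bases before to 50 after a transcript start, from RefSeq (GRCm38.p6, the mm10 build). Of the 7 genes, 5 matched this table. Twist1 is shown because a summit lay in its promoter, Snai1 and Zeb2 because EL summits lay just downstream of the start, and Prrx1 as a promoter with EL replicate 2 summits only in its neighbourhood. Capitals mark the G-rich core GGGAGGG (or CCCTCCC), part of the known ZFP281 motif, and the E-box CAGGTG (or CACCTG) of Snail and Zeb proteins. Both strands were searched, and runs of capitals longer than the motif are overlapping matches.
Twist1 (chr12:33957421-33957720, + strand): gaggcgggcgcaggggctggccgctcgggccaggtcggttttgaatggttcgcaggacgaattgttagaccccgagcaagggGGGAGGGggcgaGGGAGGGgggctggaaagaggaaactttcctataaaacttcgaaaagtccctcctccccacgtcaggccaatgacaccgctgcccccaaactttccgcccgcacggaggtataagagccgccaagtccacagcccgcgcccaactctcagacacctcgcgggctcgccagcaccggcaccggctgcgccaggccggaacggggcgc
Snai1 (chr2:167537945-167538244, + strand): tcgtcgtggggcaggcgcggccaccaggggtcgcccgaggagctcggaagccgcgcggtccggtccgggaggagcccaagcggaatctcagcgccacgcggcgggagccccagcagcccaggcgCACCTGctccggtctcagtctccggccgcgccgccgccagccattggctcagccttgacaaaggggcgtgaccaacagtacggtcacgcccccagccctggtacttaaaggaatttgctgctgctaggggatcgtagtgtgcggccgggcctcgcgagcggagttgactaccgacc
Zeb2, outermost start (chr2:45117393-45117692, - strand): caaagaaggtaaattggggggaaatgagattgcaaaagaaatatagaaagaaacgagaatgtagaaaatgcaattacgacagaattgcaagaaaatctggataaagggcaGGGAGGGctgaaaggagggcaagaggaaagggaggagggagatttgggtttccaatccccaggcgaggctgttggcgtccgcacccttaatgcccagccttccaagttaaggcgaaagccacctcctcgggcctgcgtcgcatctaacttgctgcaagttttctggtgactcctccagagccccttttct
Zeb2, inner start (chr2:45110228-45110527, - strand): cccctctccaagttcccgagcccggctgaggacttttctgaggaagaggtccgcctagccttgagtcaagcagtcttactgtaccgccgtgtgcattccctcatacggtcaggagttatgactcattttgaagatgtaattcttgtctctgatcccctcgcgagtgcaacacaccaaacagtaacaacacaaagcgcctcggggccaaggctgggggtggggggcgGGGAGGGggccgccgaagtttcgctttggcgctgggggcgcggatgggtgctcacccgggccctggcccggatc
Prrx1 (chr1:163313601-163313900, - strand): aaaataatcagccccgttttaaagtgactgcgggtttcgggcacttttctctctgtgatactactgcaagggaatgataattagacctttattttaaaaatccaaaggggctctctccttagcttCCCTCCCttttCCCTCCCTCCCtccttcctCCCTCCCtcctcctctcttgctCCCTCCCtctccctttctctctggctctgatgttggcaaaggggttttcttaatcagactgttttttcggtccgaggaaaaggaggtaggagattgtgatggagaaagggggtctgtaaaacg
The Twist1 promoter held 2 matches to GGGAGGG, of which 1 was part of a match to the longer core GGGGAGGGG (or CCCCTCCCC). The Prrx1 promoter held 5 matches to GGGAGGG, the outermost Zeb2 promoter 1, the inner Zeb2 promoter 1 (also part of a longer core) and the Snai1 promoter none. Of all 32851 promoters listed there, 21.95% held GGGAGGG, 6.37% the longer core and 20.2% the E-box, which the Snai1 promoter held once. These matches describe the letters of the windows and are not sites of binding.

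ZFP281 summits at the EMT transcription factor genes lay mainly in the early lesion lists. Summed over the 7 genes, window summits numbered 18, 24 and 19 in EL against 0, 2 and 4 in PT. Values of a group are always given in the order of replicates 1 to 3. Every EL library lay above every PT library, with means of 20.3 ± 3.21 and 2 ± 2 (SD, n = 3 each). An exact permutation of the library labels gave a two-sided p = 0.1. With 3 libraries a side no smaller value can arise, so none of the comparisons below could pass 0.05. A summit present in fewer cells and one bound more weakly in every cell cannot be told apart.

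The deposited lists differ in length, from 2897 summits in PT replicate 1 to 15770 in EL replicate 2, and read depth is unknown. Per 1000 listed summits, the 7 windows took 2.10, 1.52 and 2.69 in EL against 0, 0.496 and 0.663 in PT, and the groups again did not overlap (two-sided exact permutation p = 0.1). When each list was shortened to its 2897 best-scored summits, the windows took 7, 7 and 7 summits in EL against 0, 2 and 0 in PT (two-sided exact permutation p = 0.1). At that length the lowest score kept was 23.3 in EL replicate 2 and 1.42 in PT replicate 1, whose list was kept whole. The order of the groups was thus also present where the list lengths were the same. A window summit was found at 5, 7 and 6 of the 7 genes in EL against 0, 2 and 3 in PT, where 34.7%, 48.4% and 30.7% of all protein-coding genes had one in EL, and 16.7%, 21.6% and 29.0% in PT. At equal length it was 4, 5 and 5 genes against 0, 2 and 0, where all 6 libraries had one at between 16.7% and 17.6% of protein-coding genes.

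**Figure D1:**
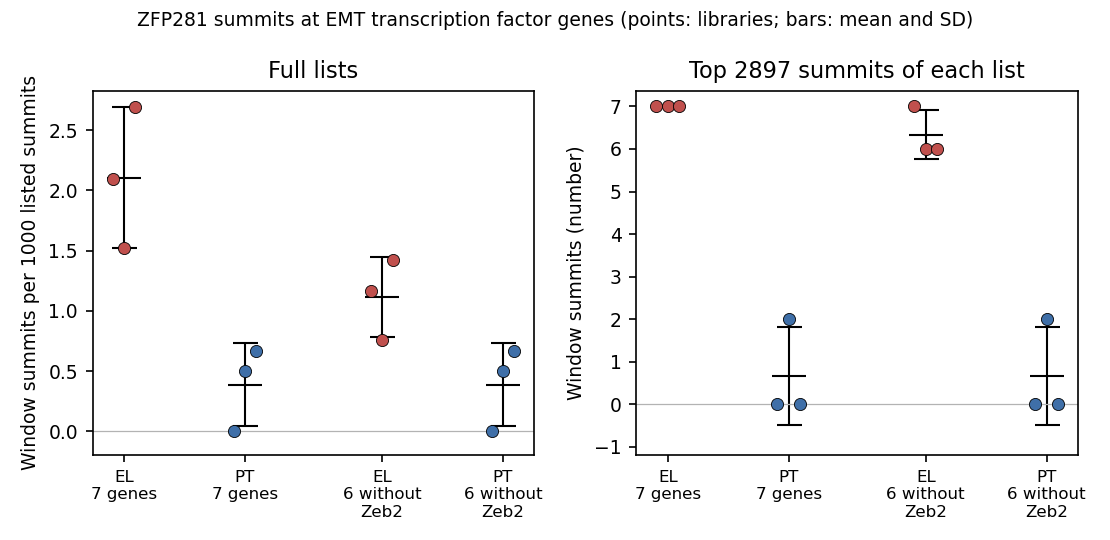
Window summits of the 7 genes, and of the 6 genes other than Zeb2, per 1000 listed summits (left) and as a number in the 2897 top-scoring summits of each list (right). Points are libraries, horizontal marks the mean and bars the SD (n = 3); with all 7 genes the EL libraries sit between 1.52 and 2.69 on the left and at 7 on the right, above every PT library.

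Gene by gene, Snai1, Twist1, Twist2 and Zeb2 had more window summits in each EL library than in any PT library, 4 of the 7. Among all protein-coding genes 9.26% did so in full lists, 18.0% among those with a window summit in any library and 16.6% among those of 100 kb or longer. None of the 7 showed the opposite order, which was found for 0.274% of all protein-coding genes, 0.533% of those with a window summit and 0.618% of those of 100 kb or longer. At equal list lengths 4 of the 7 were again higher in every EL library, now Snai1, Twist1, Twist2 and Zeb1, against 2.12% of all protein-coding genes and 7.58% of those with a window summit in such a list. None was higher in every PT library (1.83% and 6.55%). A window summit in all 3 EL and no PT library was found at Twist2 and Zeb2 in full lists (5.19% of all protein-coding genes) and at Twist2 and Zeb1 at equal length (1.64%).

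**Figure D2:**
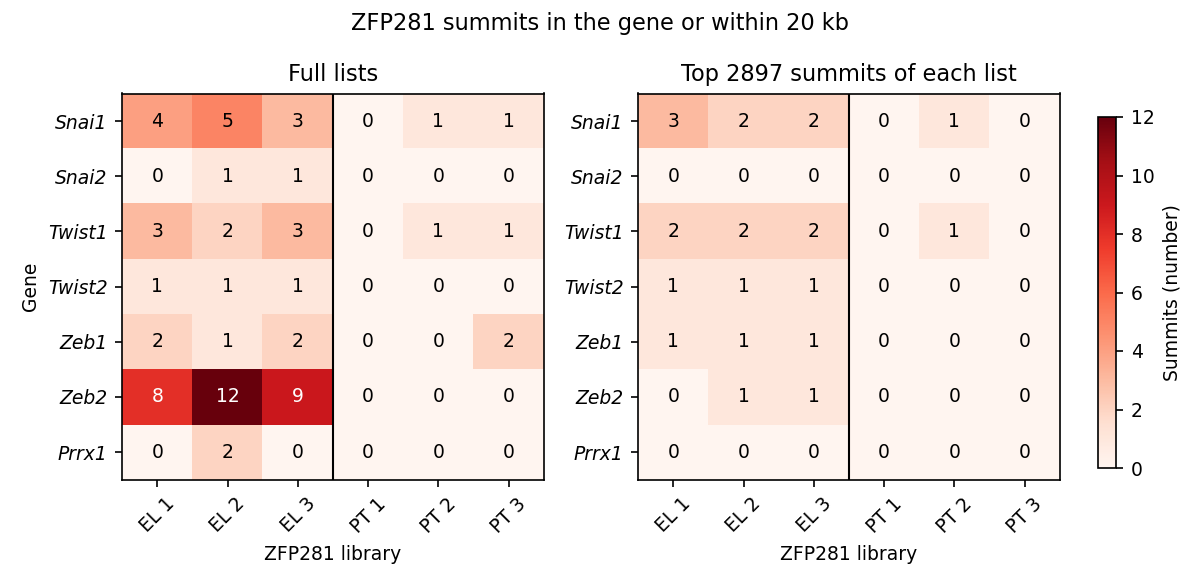
Number of ZFP281 summits in each gene or within 20 kb of its ends (rows) in each library (columns), in full lists (left) and in the 2897 top-scoring summits of each list (right); darker cells hold more summits. Zeb2 holds 8, 12 and 9 summits in the EL full lists and 0 in each PT list, and at equal length 0, 1 and 1 in EL.

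Zeb2 carried the most summits of the 7 genes. Its window held 8, 12 and 9 summits in EL and 0 in every PT library, which is 29 of the 61 EL window summits of the 7 genes. The groups did not overlap (9.67 ± 2.08 against 0, SD, n = 3 each, two-sided exact permutation p = 0.1). Among all protein-coding genes, 17 including Zeb2 had as many EL window summits or more. No PT window summit was found at 15065 genes, of which 10628 had none in any library. Among the 15065, Zeb2 had the highest EL number, in windows that differ in length. Next were the protease genes Adamts2 (24) and Adam19 (22) and the integrin gene Itga5 (21), named after their values were seen.

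The Zeb2 summits merged into 14 regions when summits at most 200 bp apart were joined. Of these, 6 were found in all 3 EL libraries, 3 in 2 of them and 5 in 1. The annotation places Zeb2 on chromosome 2 from 44983512 to 45117442, and transcription starts at the upper end. The region closest to the outermost start (45117138 to 45117271) lay 238 bp downstream of it, with score percentiles of 6.14, 73.6 and 22.5 in EL, where 100 is the top of a list. A second (45116258 to 45116358) lay 1134 bp downstream, at percentiles 56.5, 66.8 and 14.7. These promoter-proximal summits were thus of middle or low rank in EL replicates 1 and 3.

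Further regions of all 3 EL libraries lay deep inside Zeb2 and past its end. They were found 23.8 kb (45093608 to 45093747), 26.1 kb (45091290 to 45091363) and 77.7 kb (45039699 to 45039721) from the upper boundary. The highest-ranked region in EL replicates 1 and 3 lay 5959 bp past the lower boundary, which is the 3′ end of the gene (44977522 to 44977585; percentiles 61.3, 78.9 and 77.4). In EL replicate 2 the region 26.1 kb inside ranked higher, at percentile 86.5, against 58.5 and 36.6 in EL replicates 1 and 3. Regions of 2 EL libraries lay 2586 bp (45114843 to 45114870, within 1 kb of the long non-coding RNA gene Zeb2os), 8703 bp (45108684 to 45108794) and 19.3 kb (45098117 to 45098167) inside the upper boundary. A summit of EL replicate 2 alone lay 434 bp downstream of the inner start whose promoter is printed above, at percentile 72.3.

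The numbers at Zeb2 thus came with moderate scores. Median percentiles of its summits were 43.8, 67.7 and 36.6 in EL, and those of the summits at the other 6 genes 76.2, 79.9 and 63.9. At equal list lengths Zeb2 kept 0, 1 and 1 EL summits, and its groups overlapped (two-sided exact permutation p = 0.4). In the PT libraries the nearest summit lay 56.3, 56.4 and 56.4 kb away from the gene, in 1 region below it (44927121 to 44927221) that was found in all 6 libraries, at percentiles of at least 84.5 in EL and between 56.2 and 76.1 in PT. Without Zeb2 the other 6 genes held 10, 12 and 10 summits in EL against 0, 2 and 4 in PT. Per 1000 listed summits these were 1.16, 0.761 and 1.42 against 0, 0.496 and 0.663, so that the ratio of the means was 2.88 without Zeb2 and 5.44 with it, and the groups did not overlap.

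**Figure D3:**
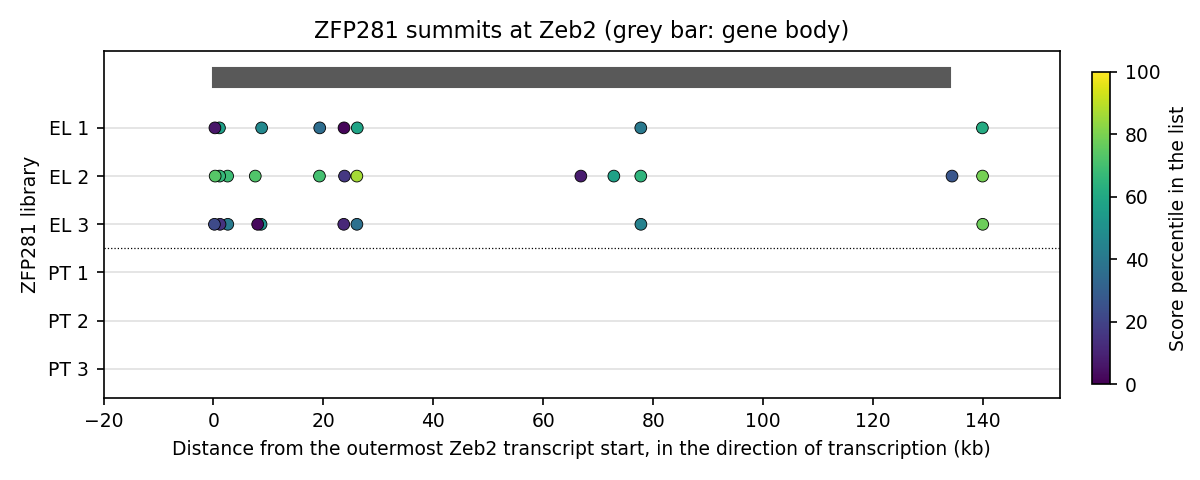
Summits at Zeb2 in each library (rows) by distance from the outermost transcript start in kb, in the direction of transcription; the grey bar is the gene body and colour the score percentile within the list. EL summits recur in the first 26.1 kb, 77.7 kb inside and 5.96 kb past the end of the gene, and the 3 PT rows are empty.

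Zeb1, the paralogue, was bound close to its lower end. On chromosome 18 from 5591327 to 5775468, it had 2, 1 and 2 window summits in EL against 0, 0 and 2 in PT, so the groups overlapped (two-sided exact permutation p = 0.4). The first region (5591823 to 5591973) lay 571 bp inside the lower boundary, at percentiles 78.2, 89.8 and 82.9 in EL and 29.3 in PT replicate 3. The second (5592812 to 5592969), 1563 bp inside, was found in EL replicates 1 and 3 at 58.5 and 50.5 and in PT replicate 3 at 50.9. Both lie within 1 kb of the end of the long non-coding RNA gene Gm10125, whose span holds the first, and counting by position cannot separate them. No other part of its window of 224.1 kb held a summit.

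At equal list lengths Zeb1 had 1 summit in each EL and none in any PT library. This rests on the list limit. The lowest score kept in PT replicate 3 was 8.74, and its stronger Zeb1 summit, with a score of 8.69, lay just outside, as did its Snai1 summit with the same score. With 3000 summits per list, and all of PT replicate 1, Zeb1 overlapped, and 3 of the 7 genes stayed apart.

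At Snai1, the gene of the Snail repressor, 4, 5 and 3 window summits were listed in EL against 0, 1 and 1 in PT. The groups did not overlap (4 ± 1 against 0.667 ± 0.577, SD, n = 3 each, two-sided exact permutation p = 0.1). The gene lies on chromosome 2 from 167538195 to 167542814. A region 198 bp downstream of the start (167538323 to 167538463) was found in the 3 EL libraries alone, at percentiles 72.2, 73.2 and 63.9. The printed promoter ends upstream of these summits.

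Past the 3′ end of Snai1 were regions that the PT lists also held. One (167543412 to 167543541) lay 662 bp above the upper boundary, at percentiles 84.7, 90.0 and 81.4 in EL and 66.7 in PT replicate 2. The other (167553140 to 167553253) lay 10.4 kb above it, beside the non-coding RNA gene Gm11476, at 78.7, 83.6 and 46.5 in EL and 50.9 in PT replicate 3. Each was thus found in all 3 EL and in 1 PT library, and not the same PT library. The remaining 3 Snai1 regions were listed in 1 EL library each, at percentiles of at most 44.4. At equal length Snai1 held 3, 2 and 2 summits in EL against 0, 1 and 0 in PT.

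Snai2, the gene of Slug, had 1 region, 1195 bp below its lower boundary on chromosome 16 (14704645 to 14704669; gene from 14705852 to 14709395). It was listed in EL replicates 2 and 3, at percentiles 76.3 and 43.8, and in no other library, so that EL replicate 1 equalled the PT libraries (two-sided exact permutation p = 0.4). At equal length it was in no list. The nearest EL replicate 1 summit lay 231.6 kb from the gene.

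Twist1 had the highest-ranked region of the 7 genes. Window summits numbered 3, 2 and 3 in EL against 0, 1 and 1 in PT (2.67 ± 0.577 against 0.667 ± 0.577, SD, n = 3 each, two-sided exact permutation p = 0.1). The gene lies on chromosome 12 from 33957671 to 33959831, and the region just downstream of its start (33957710 to 33958032) was found in 5 libraries. It ranked at percentiles 90.8, 95.1 and 94.2 in EL, at 39.9 in PT replicate 2 and at 25.4 in PT replicate 3. The summits lay 72, 181, 39, 211 and 361 bp downstream of the start, in the same order of libraries, so that only that of EL replicate 3 fell in the printed promoter. All 3 EL percentiles exceeded both PT percentiles. Lists of different length cannot be compared rank by rank. The scores were 31.2, 58.0 and 36.1 in EL against 7.92 in PT replicate 2 and 5.13 in PT replicate 3. Scores too rank summits only within a list, and read depth is unknown, so they do not measure the difference in binding either.

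A second Twist1 region (33967218 to 33967279), 7417 bp above the upper boundary, was found in the 3 EL libraries alone, at percentiles 74.1, 84.8 and 85.6. It gave Twist1 its separation between the groups. With windows of 5 kb the numbers were 1 to 2 in EL and 0 to 1 in PT (two-sided exact permutation p = 0.6). At equal length with 20 kb, Twist1 had 2, 2 and 2 summits in EL against 0, 1 and 0 in PT.

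Twist2 had 1 summit in each EL library and none in PT, all in 1 region 10.1 kb above its upper boundary (chromosome 1, 91858108 to 91858159; gene from 91801461 to 91848034). The start of the gene lies at the lower end, so this region was 56.7 kb downstream of it, and no library had a summit at the start. Its percentiles were 87.3, 89.4 and 63.9 in EL, and it was in each EL list at equal length. The nearest PT summits lay 344.6, 340.7 and 57.6 kb from the gene in PT. Windows of 5 kb left Twist2 with no summit in any library.

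Prrx1 had summits within 20 kb in 1 library only. EL replicate 2, the longest list, held 2 summits, 1150 bp downstream and 2305 bp upstream of the start in the promoter table (chromosome 1, 163312500 and 163315955; gene from 163245119 to 163315145), at percentiles 31.4 and 16.1. The other 5 libraries had 0, and the groups overlapped (two-sided exact permutation p = 1). The nearest summits of EL replicates 1 and 3 lay 47.0 and 23.7 kb from the gene, and those of the PT libraries at least 674.5 kb. With windows of 50 kb the groups were apart, at 1 to 4 summits in EL and 0 in each PT library (two-sided exact permutation p = 0.1). Its promoter, with the most matches to GGGAGGG among those printed, thus had no summit within it.

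**Figure D4:**
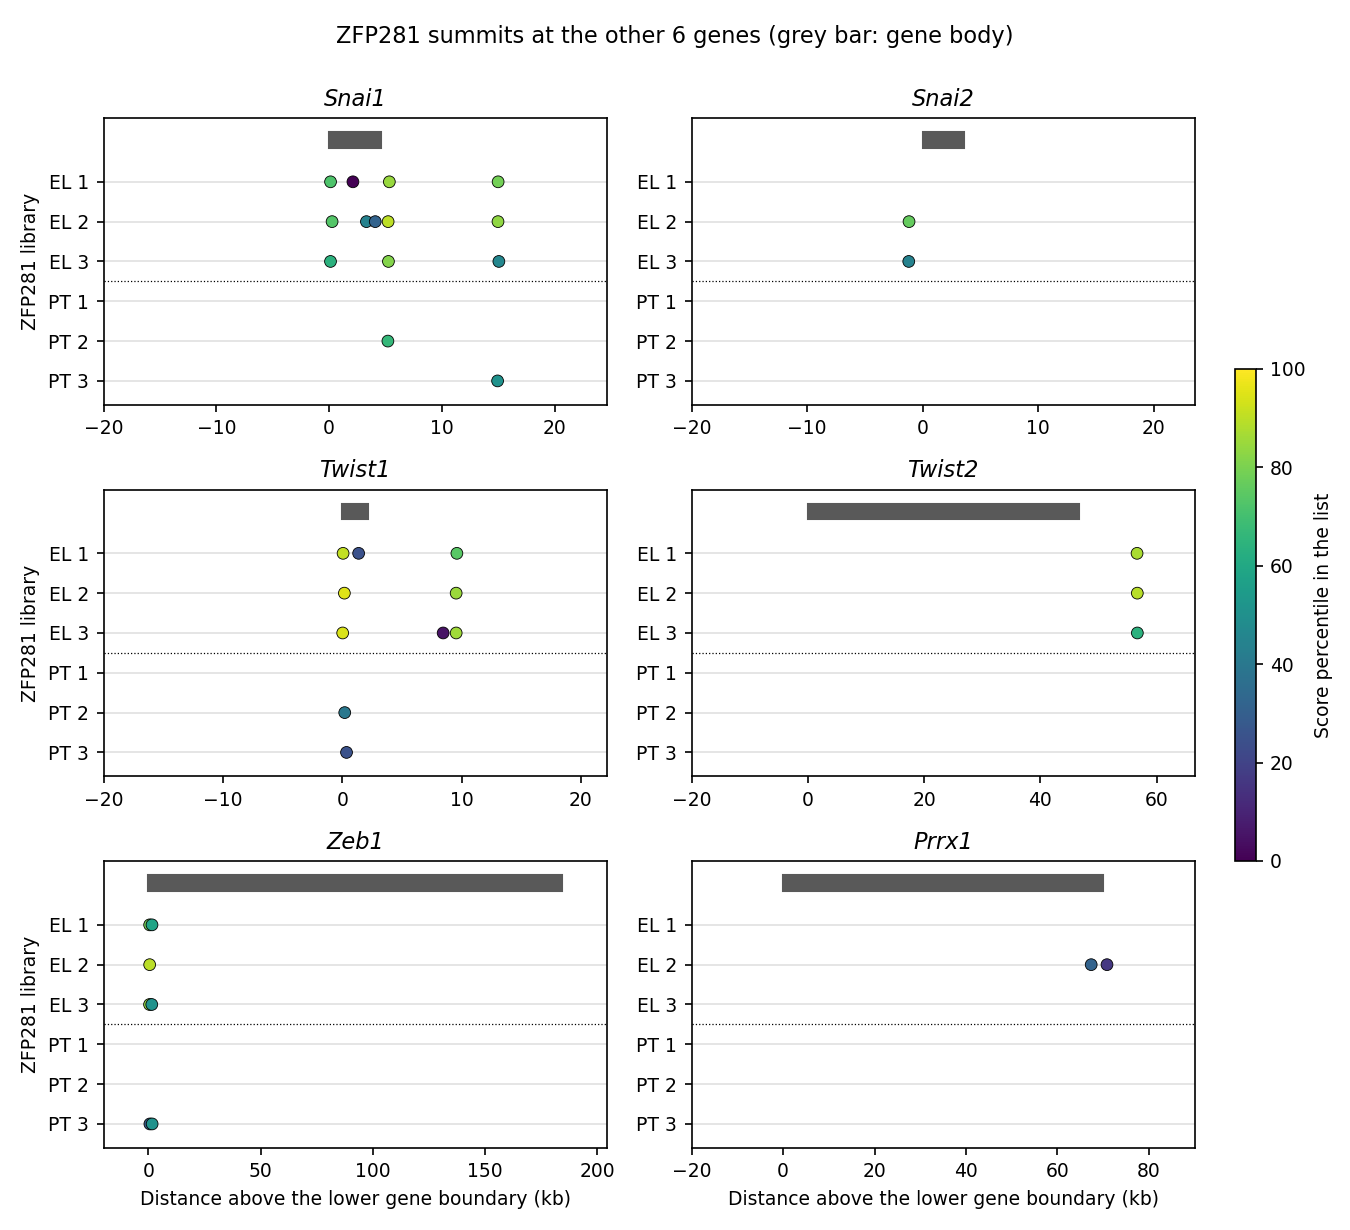
Summits at the other 6 genes in each library (rows) by distance above the lower gene boundary in kb; grey bars are gene bodies and colour is the score percentile within the list. The Zeb1 points of a library lie about 1 kb apart and partly cover each other. PT replicate 1 has no summit in any panel, and the brightest points are those just downstream of the Twist1 start, at 90.8 to 95.1 in EL.

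In full lists the pairs of related genes differed in how densely summits lay in their windows. Per 10 kb of window, EL libraries had 0.896 ± 0.224 summits at Snai1 and 0.153 ± 0.133 at Snai2, 0.632 ± 0.137 at Twist1 and 0.116 ± 0 at Twist2, and 0.0744 ± 0.0258 at Zeb1 and 0.556 ± 0.120 at Zeb2 (SD, n = 3 each). Prrx1 had 0.0606 ± 0.105. Snai1 thus exceeded Snai2, Twist1 exceeded Twist2 and Zeb2 exceeded Zeb1 by more than the spread between EL libraries, with no test made. In the order of these densities the EL libraries overlapped between Snai1 and Twist1, Twist1 and Zeb2, Snai2 and Twist2, and Zeb1 and Prrx1, and did not overlap between Zeb2 and Snai2 or between Twist2 and Zeb1. The order of Zeb2 above Zeb1 did not hold in every EL library at equal length, where Zeb1 kept 1, 1 and 1 summits and Zeb2 0, 1 and 1. Best percentiles in EL were also higher at Zeb1 (78.2, 89.8 and 82.9) than at Zeb2 (61.3, 86.5 and 77.4).

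In all, the 7 windows held 30 regions, of which 18 were found in at least 2 libraries. All 3 EL and no PT library held 9 of the 30 (30.0%), against 10.03% of the 19317 regions of the whole genome. At least 1 PT library held 5 of them (16.7%), against 36.7% genome-wide, and none was found in all 6 libraries, against 8.14%. Regions of 1 gene are not independent, and 6 of the 9 belong to Zeb2. The 5 regions with a PT summit had a median EL percentile of 82.9, with a range from 54.5 to 94.2, and the 9 EL-only ones of 58.5, from 11.1 to 87.3, so the ranges overlapped. Inside gene bodies lay 21 of the 30, within 1 kb of a gene boundary 9, and over 5 kb from both boundaries 14. Zeb2 alone gave 12 of the 21, 2 of the 9 and 10 of the 14. Genome-wide shares of these positions are not given here.

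Other genes of the EMT programme were counted in the same windows. The mesenchymal targets, such as collagens, cadherins 2 and 11 and vimentin, had more summits in every EL than in any PT library for 13 of 20 genes in full lists (65.0%, against 9.26% of all protein-coding genes) and 6 of 20 at equal length (30.0%, against 2.12%), with none in the opposite order. The receptor gene Axl had 4, 6 and 4 window summits in EL against 2, 2 and 2 in PT. Sparc, a matrix protein gene, had 2, 4 and 2 against 0, 1 and 2, and Col1a1, a fibrillar collagen gene, 7, 8 and 9 against 0, 1 and 2. The median difference, EL minus PT, was 1.83 summits over these 20 genes and 1 over the 7 transcription factors, against 0 over all protein-coding genes. At equal length it was 0.333 over the 20 genes, 1 over the 7 and 0 over all protein-coding genes, so the order of both lists turned.

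Among 16 other transcription factors linked to EMT, 5 were higher in every EL library in full lists (31.2%, against 9.26% of all protein-coding genes). At equal length it was 1, Hmga2 (6.25%, against 2.12%), named after its values were seen. The median difference was 0.667 in full lists and 0 at equal length. Sox4 had 3, 4 and 5 window summits in EL against 2, 2 and 3 in PT, Tcf4 7, 9 and 6 against 2, 1 and 2, and Sox9 2, 4 and 0 against 3, 3 and 1. Of the paralogues outside the 7, both named after their values were seen, Prrx2 had 4, 5 and 2 summits in EL against 0, 0 and 1 in PT, and Snai3 had 1, 2 and 1 against 0, 1 and 1, where the groups overlapped.

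Epithelial targets and opponents of EMT showed no gene of 22 that was higher in every EL library, nor one higher in every PT library, in full lists, against 9.26% and 0.274% of all protein-coding genes. At equal length 4 of 22 were higher in every PT library (18.2%, against 1.83% of all protein-coding genes and 6.55% of those with a window summit) and none in every EL library (2.12%). Named after their values were seen, these were Cdh1, the E-cadherin gene that Snail and Zeb proteins repress (0, 0 and 0 in EL, 1, 1 and 2 in PT at equal length), Cldn3, Cldn4 and the epithelial regulator gene Grhl3. All 6 full lists held a Cdh1 window summit, with 1, 1 and 1 in EL against 1, 1 and 3 in PT. Its EL summits thus lay below the limit of the shortened lists. In full lists the keratin gene Krt8 had 3, 3 and 2 window summits in EL against 2, 3 and 5 in PT. The splicing regulator gene Esrp2 had 3, 5 and 1 against 1, 1 and 2, and the polarity gene Crb3 had 1 in each of the 6 libraries.

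**Figure D5:**
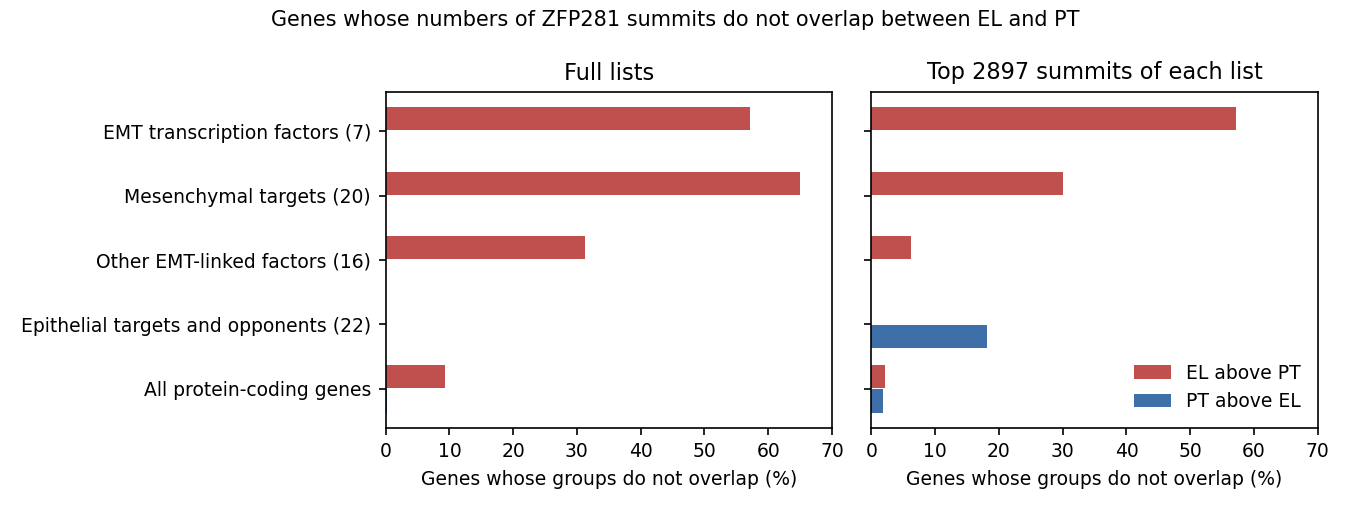
Share of genes (%) in each list whose number of window summits was higher in every EL than in any PT library (red) or the reverse (blue), in full lists (left) and in the 2897 top-scoring summits of each list (right). The 7 transcription factors show 57.1% in red in both panels, all protein-coding genes 9.26% and 2.12%, and the epithelial list 18.2% in blue at equal length.

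The miR-200 family, microRNAs that repress Zeb1 and Zeb2 and are themselves repressed by ZEB proteins, was added after the values of the 7 genes were seen. The family is shown by its mature sequences from RefSeq, with the seed (bases 2 to 8) in capitals, since the members fall into a pair of seed groups that are encoded at 2 loci.
mmu-miR-200b-3p: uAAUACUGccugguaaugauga
mmu-miR-200c-3p: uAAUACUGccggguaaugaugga
mmu-miR-429-3p: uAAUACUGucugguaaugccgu
mmu-miR-200a-3p: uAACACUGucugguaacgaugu
mmu-miR-141-3p: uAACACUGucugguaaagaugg
The locus of Mir200c and Mir141 on chromosome 6 had 1, 2 and 1 window summits in EL against 2, 2 and 3 in PT. The groups met at 2. At equal length this locus had 0, 0 and 1 in EL against 2, 1 and 2 in PT, and the groups met at 1. The locus of Mir200a, Mir200b and Mir429 on chromosome 4 had 0 in each EL library, 0 in PT replicates 1 and 2 and 1 in PT replicate 3, at percentile 45.1. At equal length the chromosome 4 locus had 0 in every library. Neither locus was higher in every library of either group, in full lists or at equal length.

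By the best score percentile in each of the 6 libraries, counted as 0 where there was no summit, the genes most like each factor were named. For Snai1 they included Vav2 and Bcl6, at mean absolute differences of 2.05 and 2.62 percentile points. For Twist1 they were Hif3a (3.45) and, tied, Gm37013 and Gm38666 (3.49 each), for Zeb1 Eif2ak4 (1.41), Brdt (1.59) and Atxn7l1 (2.01), and for Zeb2 Cfap97 (0.884), Tbc1d22a (1.05) and Btbd19 (1.24). For Twist2 they were Por (0.687) and, tied, Dpp8 and Igdcc4 (0.931 each), and for Snai2 Zfp811 and Zfp871 (0 each) and Hmgcs1 (0.552). Each tied pair, and Zfp811 with Zfp871, had equal best percentiles in every library. Whether such genes share the same summits was not examined. For Prrx1, 137 genes had the same pattern, a single best percentile in EL replicate 2, so that none stands out. Within 5 points lay 11 genes for Snai1, 131 for Snai2, 27 for Twist1, 163 for Twist2, 89 for Zeb1, 202 for Zeb2 and 2237 for Prrx1.

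Markers of other cell types were counted in the same way. Of all protein-coding genes, 34.7%, 48.4% and 30.7% had a window summit in EL, and 16.7%, 21.6% and 29.0% in PT. Of 7 fibroblast marker genes, 5, 6 and 5 had a window summit in EL against 0, 1 and 3 in PT, with Lum at 0 throughout. In full lists 4 of these 7 were higher in every EL library, against 9.26% of all protein-coding genes, and at equal length 2 of 7 (28.6%, against 2.12%). Col1a1 and Col3a1 stand in this list and among the mesenchymal targets. Of 9 mammary epithelial markers, 3, 5 and 3 had one in EL and 2, 4 and 5 in PT, with Epcam, Esr1, Krt5 and Krt14 at 0. Of 5 lung epithelial markers 3, 3 and 2 had one in EL and 0, 1 and 2 in PT, with Nkx2-1 and Sftpb at 0. In full lists and at equal length 1 of these 5 was higher in every EL library (20%, against 9.26% and 2.12% of all protein-coding genes). It was Sftpc, named after its values were seen, with 4, 5 and 3 window summits in EL against 0, 0 and 1 in PT in full lists. Assignment to the nearest gene was made for the 7 factors alone, so the Sftpc summits may lie nearer to another gene. None of the 5 was higher in every PT library. Endothelial markers had 1, 2 and 1 of 5 in EL and 0, 1 and 1 in PT, and of 6 leukocyte markers only Csf1r had one, in EL replicate 2. No mammary epithelial, endothelial or leukocyte marker was higher in every library of either group. This held in full lists (9.26% of all protein-coding genes for EL, 0.274% for PT) and at equal length (2.12% and 1.83%). The part of cell composition in the results at the 7 genes was not tested.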

How the data were processed

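Libraries of ZFP281-bound DNA gave read pairs of 150 bp, per the labels' protocols. Bowtie2 2.3.4.3, Picard and the mm10 build are named in the submitters' processing notes. Which peak caller was run, and whether it used the inputs, is not given in the sources used here. Each library has a summit list of its own. Scores deposited by the authors were taken to be −log10 q-values because none lies below 1.30, the −log10 of 0.05; no label states it.

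The 7 genes, the lists of related genes and the tests were chosen with earlier results of these data known. Only chromosomes 1 to 19, X and Y entered, with 1-based positions and RefSeq genes of GRCm38. A window is the gene and 20 kb at either end, and groups do not overlap where the lowest value of one lies above the highest of the other. Regions join summits, from whichever library, that lie within 200 bp, and distances of a region are from its midpoint. Summit numbers were compared with an exact permutation test of 3 against 3 libraries (20 relabellings, two-sided), which measures only the spread between these samples. Named were all 7 genes with their regions of at least 2 libraries, the 3 leading genes of each list (by libraries, then median percentile) and the 3 most alike genes over 1 Mb away. A gene that this rule names is not reported here. Alternatives were other windows, stricter scores, other list lengths and merging distances, nearest-gene assignment, leaving out each library, and blocking by replicate number. Chosen after seeing the data were lists of 3000 summits, the set without Zeb2, the miR-200 genes and the 2 further backgrounds. The counting was tested on simulated data. No 2 lists shared more than 81 identical positions. Python 3.11.15, numpy 2.4.6 and pandas 2.3.3 were used.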

Additional observations from a re-analysis of the deposited data

How the results depend on the processing

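The 5 summed comparisons of summits and of genes bound kept their direction, EL above PT, in all 70 recomputed values. No such test could pass 0.05. Among the 70, the differences under the replicate block equal the main ones by construction, and nearest-gene assignment left all 5 unchanged. Leaving out 1 library at a time, the difference of window summits ranged from 16.5 to 19.5 in full lists, 1.42 to 2.01 per 1000 listed summits and 6 to 7 at equal length, and that of genes bound from 3.5 to 5 and, at equal length, 3.67 to 4.67 (exact permutation p = 0.1 each, the smallest possible). Genes with groups apart numbered 4 to 5 in either kind of list, and EL-only regions 9 to 11. A replicate block on the shared numbers gave a difference of 18.3 window summits (exact sign-flip p = 0.25, the smallest possible for 3 pairs). No pairing by number was seen, as deviations of same-numbered libraries correlated at -0.0587, -0.00190 and -0.0128. Those of differently numbered libraries correlated at between -0.0373 and 0.0574. These values do not settle whether same-numbered libraries share a batch. The count of 4 genes apart in full lists became 2 with windows of 5 kb and 2 in gene bodies alone, Snai1 and Zeb2 in either case. At equal length the 4 became 1 with windows of 5 kb, 1 in gene bodies, 1 with the 1000 top-scoring summits and 3 with 3000. The 9 EL-only regions became 4 when merging at 50 bp, 3 in lists of equal length and 3 without Zeb2. For Twist2 the windows of 5 kb hold no summit, so its loss follows from the window. Read depth is unknown, so a missing PT summit may be one below detection.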
